A study of Homo sapiens with 6 samples.

Results

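The genes described here are 9 that build the attachment of basal epithelial cells to the basement membrane, namely *LAMA3* and *LAMB3*, *ITGA6*, *ITGB4*, *ITGA3* and *CD151*, and *COL17A1*, *DST* and *PLEC*. Each was taken as its gene body in GENCODE v44 (hg38) plus 10000 bp on either side, and these 9 loci, of 20007 protein-coding genes, held 53 of the 49527 regions of open chromatin obtained by merging the lists of 6 ATAC-seq libraries. ATAC-seq marks accessible DNA by where Tn5 transposase can cut it. The libraries were made from MCF10A cells, an established, non-tumorigenic human mammary epithelial line, and all cells first spent 30 min in phosphate-free HHBSS buffer. Then 2 libraries came from control cells, labelled untreated and given the same buffer alone for 30 min. A further 2 came from cells given 50 μM tris(2-pyridylmethyl)amine (TPA), a chelator of Zn2+ and not the phorbol ester of the same abbreviation, for 30 min, and 2 from cells given 30 μM ZnCl2 for 30 min. The study asked which parts of the genome become more or less accessible when labile Zn2+ is depleted or raised. The deposited lists give regions called by HMMRATAC in each library with a whole-number score, and no reads, so that the depth is unknown and no fold change in accessibility can be given.

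Laminin-332 is a cross-shaped protein of the basement membrane, and its α3 and β3 chains are encoded by *LAMA3* and *LAMB3*. The integrin α6β4 holds laminin-332 from the cell side and, together with the transmembrane collagen XVII and the tetraspanin CD151, forms the hemidesmosome, whose inner plaque of large linker proteins (plakins) is bound to keratin filaments. Basal cells of skin and breast depend on this junction, and inherited loss of its parts causes blistering of the skin. Integrin α3β1 binds the same laminin outside the hemidesmosome.

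The lists held between 18887 (ZnCl2 2) and 44641 (control 2) regions, and control 1 held 25031, so that the length of the lists differed widely within a group as well. A score was therefore read only as its percentile within its own list, that is, the percentage of regions of that library with a lower score. In the TPA libraries 91 and 685 calls were wider than 20000 bp, against 1 to 13 in the other 4 libraries. Of 8 markers of basal-like mammary epithelium, between 1 (ZnCl2 2) and 7 (TPA 2) had the gene start in a call, *SFN* in all 6 libraries and *TP63*, which has further starts, in none. Of 4 endothelial markers none was called in any library, and of 4 blood markers only *CD14* and of 4 markers of muscle and neuron only *SYP* was. The replicates are called biological in the study's methods and technical in its results, so that their spread may be technical, and with 2 libraries against 2 an exact two-sided permutation test cannot go below p = 0.33. Over all genes, the smallest adjusted p for a difference in start-site percentile was 0.988 for TPA against control, 1.0 for ZnCl2 against control and 0.844 for TPA against ZnCl2 (exact permutation test, Benjamini-Hochberg). No difference described here passed a test, and given that lowest possible p none could have. Each library pools many cells, so that fewer cells with an open site and less opening per cell cannot be told apart.

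Most of these genes were accessible at their start whatever the Zn2+ treatment. A call lay over the gene start in all 6 libraries for 7 of the 9 genes, compared with 39.4% of all protein-coding genes. The exceptions were *LAMA3*, without a call in ZnCl2 2, and *COL17A1*, with a call only in the TPA libraries. By the mean percentile of the region over the start, *LAMB3* was highest at these outermost starts (93.0% ± 8.95, SD, n = 6 libraries) and was followed by *PLEC* (84.5% ± 3.65), *CD151* (84.0% ± 9.58), *DST* (73.5% ± 5.87), *ITGA3* (62.8% ± 22.7), *ITGA6* (57.6% ± 30.8) and *ITGB4* (55.9% ± 15.5). *LAMA3* had 33.9% ± 25.1 over the 5 libraries with a call and *COL17A1* 32.3% ± 23.2 over 2. Neighbours in this order differed by less than the larger of their SDs, except *CD151* and *DST*, whose ranges overlapped. The values were closest together in *PLEC*, from 80.0% to 91.2%, and farthest apart in *ITGA6*, from 13.1% to 91.1%.

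**Figure D1:**
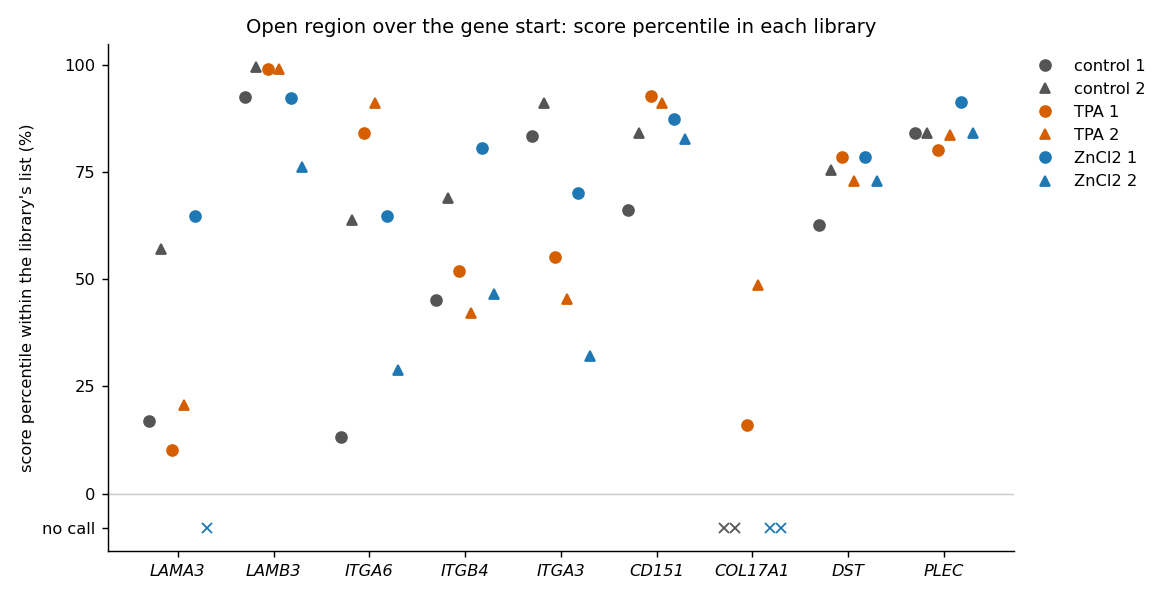
Score percentile (vertical axis, %) of the open region over the gene start in each of the 6 libraries for the 9 genes, with 1 symbol per library (circle replicate 1, triangle replicate 2) and a cross where no call covered the start. *ITGA6* and *CD151* lie higher in both TPA libraries than in both control libraries, *ITGA3* lies lower, and *COL17A1* has a call only with TPA.

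The α3 chain is encoded by *LAMA3* (ENSG00000053747.17, chromosome 18, 23689453 to 23956222, plus strand), a gene of 267 kb with a long form made from the gene start and a shorter form, the usual chain of laminin-332, made from an inner start. At the gene start the percentile was 16.8% and 56.9% in control, 10.1% and 20.7% with TPA and 64.8% in ZnCl2 1, with no call in ZnCl2 2. The groups overlapped, and TPA minus control was -21.5 percentage points (exact permutation p = 0.667, n = 2 per group). The inner start, 184 kb into the gene, was open in all 6 libraries. Its region had percentiles of 69.2% and 72.0% in control, 84.2% and 85.4% with TPA, and 82.9% and 41.2% with ZnCl2. Both TPA values were above both control values here, while the ZnCl2 values lay on either side of them. The inner start thus ranked above the gene start in each of the 5 libraries that called both. It was the only one of 8 *LAMA3* transcript starts open in all 6, where starts within 1000 bp of each other were joined into 1. The 250 bases before this start are shown because they are the accessible promoter of the shorter form and hold 2 matches to the AP-1 motif TGANTCA (searched on both strands), in capitals at positions 126 and 182 from the 5′ end. The motif occurred in 6.18% of 21427 promoter windows of 300 bases, and in 3 of the 10 such windows that the RefSeq table (GRCh38.p14) gives for 5 of these genes. These 3 were 1 window each of *LAMA3*, *LAMB3* and *DST*, and that of *LAMB3* belongs to a further start, at 209651374. The 250 bases before the *LAMB3* gene start are shown too, since this start had the highest mean percentile among the 9 outermost gene starts. They held none of the motifs searched. These were AP-1, TEAD (GGAATG), the GC box (GGGGCGGGG), the E-box (CACGTG), ETS (CCGGAAG), the p53-family motif (by name) and the CTCF core (by name). The p53-family motif searched is only part of a full p53-family site.
LAMA3 shorter form, chr18:23872770-23873019, plus strand: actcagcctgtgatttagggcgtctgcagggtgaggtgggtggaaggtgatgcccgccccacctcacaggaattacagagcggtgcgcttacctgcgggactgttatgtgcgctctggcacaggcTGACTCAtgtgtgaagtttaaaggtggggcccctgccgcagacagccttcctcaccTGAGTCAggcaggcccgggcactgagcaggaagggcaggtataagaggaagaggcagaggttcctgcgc
LAMB3, chr1:209652426-209652675, minus strand: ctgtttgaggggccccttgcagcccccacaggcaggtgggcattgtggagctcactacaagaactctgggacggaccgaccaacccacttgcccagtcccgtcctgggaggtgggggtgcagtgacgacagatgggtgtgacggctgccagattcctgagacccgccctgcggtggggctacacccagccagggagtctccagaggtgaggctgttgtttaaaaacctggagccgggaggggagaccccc

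Around the rest of *LAMA3*, 9 merged regions were found, of which 1, the inner start, was open in all 6 libraries and 2 in a lone library. An intronic region 28.5 kb from the gene start was called in all libraries but ZnCl2 2, with highest percentiles between 39.9% and 78.2%. A region of 1090 bp over an exon, 168 kb from the gene start (23857342 to 23858431), was open in both TPA libraries and in no other, at percentiles of 26.3% and 34.3%. A second region, 5.69 kb into the gene, was open in TPA 1, TPA 2 and control 2. The summed open sequence at the locus was 4.46 and 18.4 kb in control, 12.0 and 13.3 kb with TPA and 11.3 and 4.51 kb with ZnCl2, so that the control libraries held both the lowest and the highest value.

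The β3 chain gene *LAMB3* (ENSG00000196878.15, chromosome 1, 209614870 to 209652425, minus strand) had the highest mean percentile of the 9 outermost gene starts. The percentile of the region over the start was 92.6% and 99.4% in control, 98.9% and 99.1% with TPA, and 92.1% and 76.1% with ZnCl2. Both ZnCl2 values were below both control values, by 11.9 percentage points in the mean (exact permutation p = 0.33, n = 2 per group), although control 1 and ZnCl2 1 were close. The width of this region was 4430 and 10990 bp in control libraries, 4380 and 6200 bp after TPA, and 7630 and 12910 bp after ZnCl2, and the widest call, that of ZnCl2 2, had the lowest percentile. A further call upstream of it ranked at 98.1% or more in 5 of the libraries and was part of the start call in control 2. In TPA 1 another call, at 97.2%, lay between the 2. The merged start region spanned 19080 bp and its highest percentile per library ran from 98.1% to 99.7%. At the other end of the gene a merged region of 32520 bp (209600611 to 209633130) was the widest open in all 6, with percentiles from 41.2% to 75.7%.

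**Figure D2:**
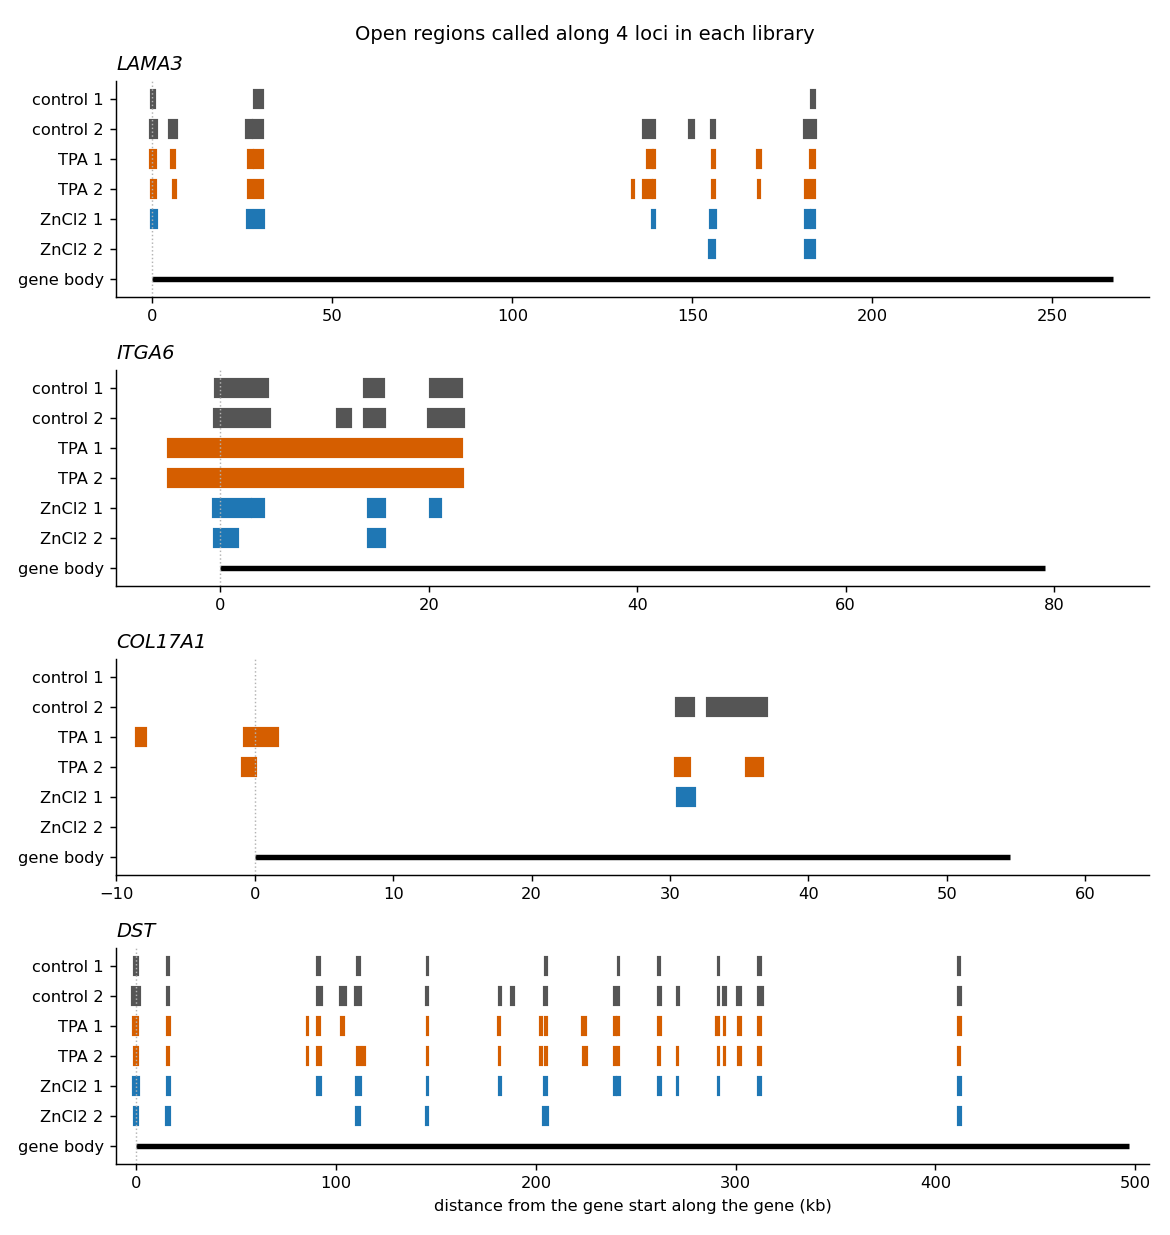
Open regions called along 4 of the loci, by distance from the gene start in kb, with 1 row per library (grey control, orange TPA, blue ZnCl2) and the gene body as a black bar, where a thin outline makes the narrowest calls visible and closes the narrowest gaps, such as that between the leftmost calls of ZnCl2 1 in *ITGA6*. In *ITGA6* both TPA libraries have 1 call of over 28 kb where the other libraries have 2 to 4 separate calls, and in *COL17A1* the start is covered only in the TPA libraries.

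The integrin α6 gene *ITGA6* (ENSG00000091409.16, chromosome 2, 172427354 to 172506459, plus strand) showed the clearest difference with TPA. The region over its start was 28250 and 28380 bp wide in the TPA libraries, but 5060 and 5350 bp in control and 3640 and 2300 bp after ZnCl2. The 3 groups did not overlap, and the mean with TPA was 28315 bp ± 91.9 (SD, n = 2) against 5205 bp ± 205 in control (exact permutation p = 0.33). In both TPA libraries the call began at the same base, 5.08 kb upstream of the start, and it ended 23.2 and 23.3 kb downstream. In control 1 the same stretch held 3 calls, and in control 2, ZnCl2 1 and ZnCl2 2 it held 4, 4 and 2 calls. Control 1 had calls from 0.503 kb upstream to 4.56 kb downstream of the start, and also at 13.7 to 15.7 kb and 20.1 to 23.2 kb, so that the TPA call covered these sites and the sequence between them. The summed open sequence of the locus was 28.3 and 28.4 kb with TPA, 10.2 and 12.2 kb in control and 7.37 and 3.92 kb with ZnCl2.

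The percentile of the *ITGA6* start region was 84.2% and 91.1% with TPA, 13.1% and 63.9% in control and 64.8% and 28.7% with ZnCl2. Both TPA values were above the other 4. The difference from control was 49.1 percentage points, the largest of the 9 genes, and the 2 control values were as far apart as this (exact permutation p = 0.33). The TPA call also holds the inner sites, so that its percentile is not that of the start alone. Taken over the merged region, the highest percentile was 50.1% and 76.0% in control, 84.2% and 91.1% with TPA and 77.4% and 28.7% with ZnCl2. Across 7877 genes with a start call in all 6 libraries, the narrowest TPA call was at least 5.28 times the widest other call in 14 genes, *ITGA6* included, or 0.178% of them. Calls of over 20000 bp were many more in the TPA lists, as given above, and the part of this in the *ITGA6* width was not tested. The stretch of 115 bases before the canonical start that holds no annotated exon is shown because it lies inside the call in all 6 libraries. Its base composition was 72.2% G and C with 15 CG pairs, and it held 1 GC box, in capitals at position 60, a motif present in 21.0% of all promoter windows.
ITGA6, chr2:172427471-172427585, plus strand: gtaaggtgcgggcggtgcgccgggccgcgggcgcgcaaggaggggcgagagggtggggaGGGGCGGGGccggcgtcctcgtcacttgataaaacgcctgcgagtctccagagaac

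**Figure D3:**
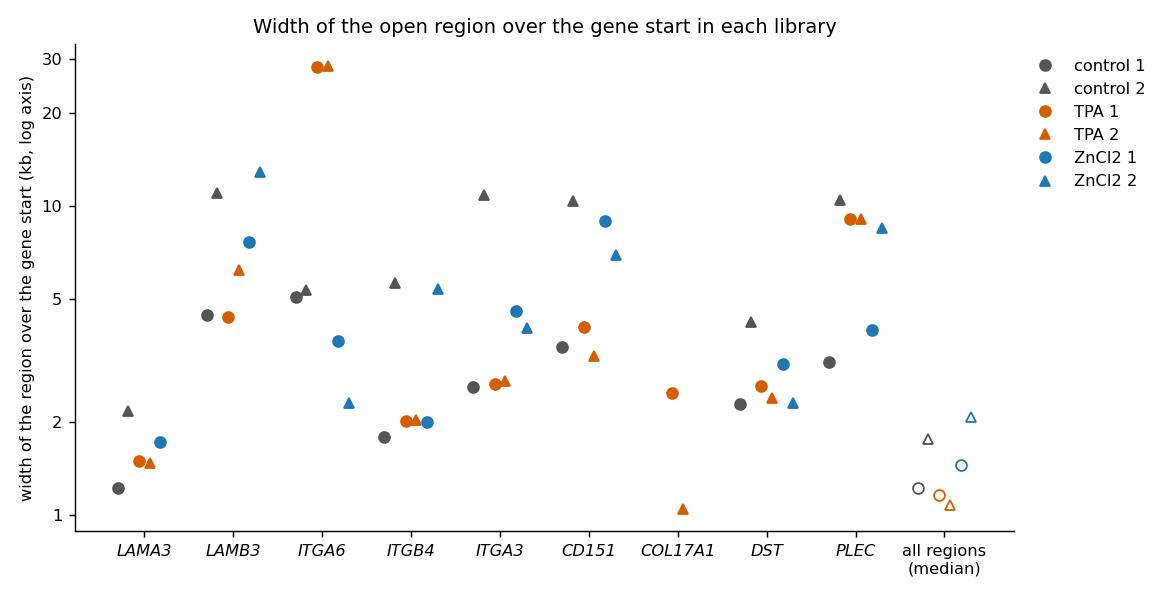
Width in kb (log axis) of the open region over the gene start in each library for the 9 genes, and at the right, as open symbols, the median width of all regions of that library. The TPA values of *ITGA6*, 28250 and 28380 bp, stand above all other widths shown, while *COL17A1* has no control width and the other 7 genes have overlapping control and TPA widths.

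The integrin β4 chain, the partner of α6 that reaches the plaque, is encoded by *ITGB4* (ENSG00000132470.14, chromosome 17, 75721328 to 75757818, plus strand). Its start was open in every library, at 45.1% and 69.0% in control, 52.0% and 42.0% with TPA and 80.6% and 46.6% with ZnCl2. All 3 groups overlapped, and TPA minus control was -10.1 points (exact permutation p = 0.667). The start call was 1780 and 5610 bp wide in control and 2010 and 2030 bp with TPA. Open sequence at the locus was higher with TPA (9.57 and 11.1 kb) than in control (3.58 and 9.18 kb), and this came from the downstream flank. There a call of 24590 bp in TPA 1 and 26260 bp in TPA 2 reached past the starts of *GALK1*, *H3-3B* and *UNK*, where the other 4 libraries each had 3 separate calls. The added sequence thus lay over neighbouring genes, and the gene body counted alone gave a TPA minus control difference of 0.67 kb with overlapping groups (exact permutation p = 1).

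The integrin α3 gene *ITGA3* (ENSG00000005884.18, chromosome 17, 50055968 to 50090481, plus strand) was lower with both treatments. The percentile of the start region was 83.3% and 91.0% in control, 55.2% and 45.4% with TPA and 70.0% and 32.0% with ZnCl2. Every treated value was below both control values, by 36.9 points for TPA and 36.2 points for ZnCl2 in the mean (exact permutation p = 0.33 for each, comparisons that share the control libraries). Further inside the gene this was not seen for TPA, while both ZnCl2 values were again below both control values. The merged start region, which reaches past the start into the gene and also holds calls further into the gene, had a highest percentile of 88.8% and 91.0% in control, 96.2% and 93.6% with TPA and 85.8% and 81.1% with ZnCl2. In control 2 the start and these inner sites were 1 call of 10830 bp, so that its percentile there is not that of the start alone, whereas the start call was 2580 bp in control 1 and 2650 and 2710 bp with TPA. A pair of upstream regions and a downstream region at the start of the neighbouring *PDK2* were open in all 6 libraries.

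*CD151* (ENSG00000177697.19, chromosome 11, 832887 to 839831, plus strand), the tetraspanin bound to both laminin-binding integrins, was higher with TPA. Its start region had percentiles of 92.8% and 91.1% with TPA, 66.1% and 84.1% in control and 87.3% and 82.6% with ZnCl2. Both TPA values were above the other 4, by 16.8 points over control (91.9% ± 1.21 against 75.1% ± 12.7, exact permutation p = 0.33) and by 6.99 points over ZnCl2. The call was no wider with TPA (4040 and 3260 bp) than in control (3480 and 10370 bp). The locus is small and crowded. The merged start region also holds the start of *CRACR2B*, and the widest region of the locus, 16100 bp, holds those of *POLR2L* and *TSPAN4*. Accessibility of these merged regions thus cannot be given to *CD151* alone. The start calls reached 1.33 and 0.576 kb upstream with TPA, 0.706 and 7.63 kb in control and 6.21 and 4.20 kb with ZnCl2, so that their percentiles are of calls of unlike extent.

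Collagen XVII (BP180), the transmembrane collagen of the hemidesmosome, is encoded by *COL17A1* (ENSG00000065618.21, chromosome 10, 104031286 to 104085880, minus strand), and its start was called only after chelation of Zn2+. A region covered the start in TPA 1 (2480 bp, 15.9th percentile) and TPA 2 (1040 bp, 48.7th percentile) and in none of the 2 control and 2 ZnCl2 libraries. This was the only start of the 9 genes gained with TPA, meaning open in both TPA libraries and in neither control library, a pattern met by 0.25% of all genes. When every list was limited to its 18887 highest scores, no library had this call, and in the upper 50% of each list by score only TPA 2 had it, at percentile 0. The call thus lies among the lower scores of TPA 1 and near the middle of TPA 2. The calls reached 0.78 and 0.93 kb upstream and 1.70 and 0.109 kb downstream of the start. The 1000 bp around the start held 40.4% G and C, at the 6.65th percentile of all genes (median 59.2%), while those of the other 8 genes held 53.8% to 75.7%. The 250 bases before the start lie inside both TPA calls and held 1 CG pair. They held 1 match to the p53-family motif, in capitals at position 196, and no AP-1, TEAD, GC box, E-box, ETS or CTCF match. This p53-family motif of 10 bases is only part of a full p53-family site, and full sites were not searched for. The motif of 10 bases occurred in 6.24% of promoter windows.
COL17A1, chr10:104085881-104086130, minus strand: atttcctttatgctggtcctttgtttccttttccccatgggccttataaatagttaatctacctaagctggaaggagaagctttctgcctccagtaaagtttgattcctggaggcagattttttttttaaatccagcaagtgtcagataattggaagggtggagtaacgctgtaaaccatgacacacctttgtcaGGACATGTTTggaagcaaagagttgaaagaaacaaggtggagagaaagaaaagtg

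No region of the *COL17A1* locus was open in all 6 libraries. Control 1 and ZnCl2 2 had no call at all within it, and these are the lists with the fewest regions. Over exons 31.1 kb from the start a call was made in control 2, TPA 2 and ZnCl2 1, and 34.8 kb from the start in control 2 and TPA 2. The summed open sequence was 0 and 5.65 kb in control, 3.21 and 3.31 kb with TPA and 1.26 and 0 kb with ZnCl2, so that the overall extent did not separate TPA from control.

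Dystonin, the product of *DST* (ENSG00000151914.22, chromosome 6, 56457987 to 56954830, minus strand), is a plakin made in several forms, and a short epithelial form (BPAG1e, BP230) serves the hemidesmosome. The start of the 497 kb gene, which it shares with *BEND6* on the other strand, was open in all libraries at 62.6% and 75.3% in control, 78.4% and 72.9% with TPA and 78.6% and 72.9% with ZnCl2. This was a narrow spread and the groups overlapped. The start of the short transcript DST-205, 312 kb into the gene, was covered in 5 libraries, at 20.4% and 54.6% in control, 62.1% and 61.1% with TPA and 9.89% in ZnCl2 1. Both TPA values were thus above both control values and the ZnCl2 value, and ZnCl2 2 had no call. With an equal number of regions per list this start was called in both TPA libraries and in no other. Of 11 *DST* starts, joined within 1000 bp, 1 was open in all 6 libraries and 5 were open in none.

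With 21 merged regions, 15 of them intronic, *DST* held more regions than any other of the 9 loci, and 5 were open in all 6 libraries. The highest mean percentile, 92.7%, was that of an intronic region 16.0 kb from the start (56937841 to 56939820), which ran from 80.3% to 97.1%. A second steady region lay 412 kb into the gene (56541831 to 56543530), at 89.3% and 94.2% in control, 84.2% and 91.7% with TPA and 96.8% and 89.8% with ZnCl2. Further, 3 intronic regions were open in both TPA libraries and in no other. They lay 85.9 kb (440 and 570 bp wide in TPA 1 and TPA 2), 203 kb (990 and 930 bp) and 224 kb (2070 and 2020 bp) from the start, at percentiles of 0 and 30.1%, 21.2% and 0, and 28.5% and 23.3%. The central 300 bases of the first pair are shown because these held the AP-1 motif, in capitals at position 251 of the first and at positions 57 and 270 of the second, which also held a TEAD motif at position 142. The region at 224 kb held a TEAD motif and no AP-1 match. TEAD letters were present in 2 of the 5 gained regions, in 20.8% of the 53 regions at the loci and in 19.1% of all regions. AP-1 letters were present in the central 300 bases of 2 of the 5 gained regions, of 10 of the 53 regions at the loci (18.9%) and of 27.0% of all 49527 regions, so that they were not more common here.
DST region 85.9 kb from the start, chr6:56868816-56869115, minus strand: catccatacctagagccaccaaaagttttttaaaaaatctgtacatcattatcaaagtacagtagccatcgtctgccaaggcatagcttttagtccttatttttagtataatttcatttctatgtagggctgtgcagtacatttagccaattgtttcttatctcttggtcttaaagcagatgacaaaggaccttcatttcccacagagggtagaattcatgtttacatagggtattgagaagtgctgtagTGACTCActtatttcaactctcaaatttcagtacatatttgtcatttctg
DST region 203 kb from the start, chr6:56751971-56752270, minus strand: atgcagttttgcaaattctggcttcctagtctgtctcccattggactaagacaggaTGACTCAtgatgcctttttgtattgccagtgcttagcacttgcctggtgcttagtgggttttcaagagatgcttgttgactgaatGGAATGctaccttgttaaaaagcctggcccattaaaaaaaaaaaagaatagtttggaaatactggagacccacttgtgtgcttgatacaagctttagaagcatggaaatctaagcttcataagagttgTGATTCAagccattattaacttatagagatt

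**Figure D4:**
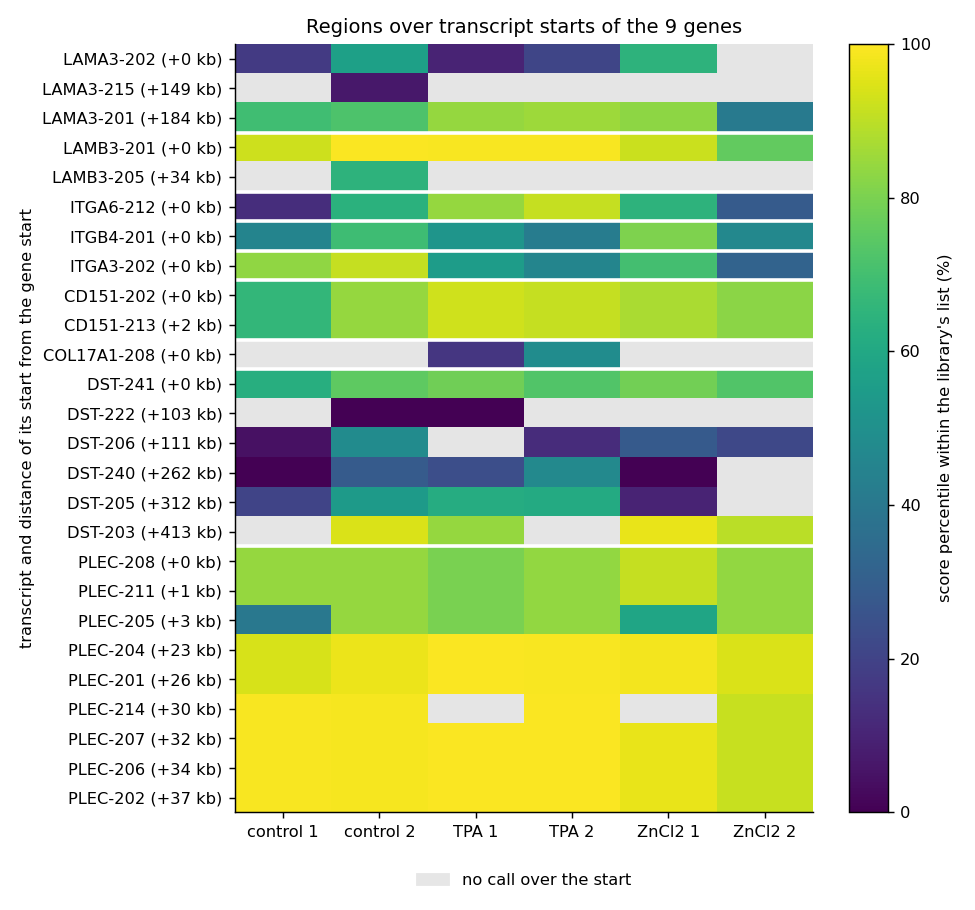
Score percentile (color, %) of the region over the protein-coding transcript starts of the 9 genes that were open in at least 1 library. Starts within 1000 bp of each other are joined and shown by 1 transcript, with 1 column per library and grey where no call covered the start. The inner *LAMA3* start 184 kb into the gene is open in all 6 libraries while the gene start is not.

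Plectin, which ties integrin β4 to keratin, is the product of *PLEC* (ENSG00000178209.17, chromosome 8, 143915153 to 143976734, minus strand). The gene has many starts, and 8 of 10, joined within 1000 bp, were open in all 6 libraries. Many of these starts lay under the same wide call, so that the 8 are not separate open sites. At the gene start the percentile was 84.1% in both control libraries, 80.0% and 83.6% with TPA and 91.2% and 84.0% with ZnCl2. Both TPA values were below both control values, with a mean difference of -2.26 points, and at the canonical start, 37.1 kb further in, TPA was the higher group instead. The region over the canonical start was the widest open in all 6 (15480 bp when merged), and its percentile was 98.8% and 98.7% in control, 99.5% and 99.4% with TPA and 96.5% and 91.8% with ZnCl2. This start was among the highest regions of every list. A start 25.9 kb into the gene likewise ran from 93.8% to 99.2%. A pair of regions without a call in both TPA libraries, 48.7 kb from the start and in the downstream flank, were open in control 2 and both ZnCl2 libraries, and were the 2 regions counted as lost in TPA against ZnCl2.

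More open regions at these loci were gained than lost with TPA. Of the 53 regions 5 were gained with TPA (3 in *DST*, 1 each in *LAMA3* and *COL17A1*) and none was lost, where 2.04% of all regions were gained and 0.703% lost. No start was lost, where 0.61% of all genes lost theirs. The gained regions ranked low, with a median percentile of 21.2% in TPA 1 and 30.1% in TPA 2, beside 13.1% and 18.1% for all 1009 regions gained. Among 8 genes with a start call in all 4 libraries, the percentile was higher with TPA in 2 (*ITGA6*, *CD151*) and lower in 2 (*ITGA3*, *PLEC*), with backgrounds of 11.8% higher and 21.9% lower. The start call was wider in 1 of the 8, *ITGA6*, and narrower in none, with backgrounds of 1.82% and 16.5%. Open sequence at the locus was higher in *ITGA6* and *ITGB4* and lower in none of 9, with backgrounds of 2.22% and 9.4%. Losses appeared without control 1, where 5 regions were gained and 4 lost, and without TPA 2, where 6 were gained and 1 lost. The counts of regions were lower in shorter lists: none of these 5 was left with 18887 regions per list, where only the region over the inner *DST* start 312 kb into the gene was gained, and in the upper 50% of each list none was gained. Of the 4 start-site percentiles that did not overlap, only that of *CD151* was left with an equal number of regions. *ITGA6* then had no call in control 1 and stood at 69.9% and 80.4% with TPA beside 14.7% in control 2, and *ITGA3* had none in TPA 2 and stood at 14.8% in TPA 1 beside 77.9% and 78.8% in control, whereas *PLEC* overlapped.

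Fewer calls at these genes differed with ZnCl2. No start and no region was gained or lost against control, where 0.11% of all starts were gained and 0.125% lost, and 0.172% of all regions were gained and 1.73% lost. Without control 1, and likewise without ZnCl2 1, 7 regions were lost and none gained, and without control 2, 3 were gained and none lost. Among 7 genes with a start call in all 4 libraries none was higher than control (background 2.74%) and 2 were lower, *LAMB3* and *ITGA3* (background 13.6%). No start call was wider (background 10.7%), and that of *ITGA6* was narrower (background 2.61%). Open sequence was higher at none of the loci (background 4.49%) and lower at *ITGA6* (background 2.64%). The order of the percentiles depended on ZnCl2 2, the shortest list: without it 6 genes were higher than control and 2 lower, and with equal numbers of regions 4 were higher (*ITGB4*, *CD151*, *DST*, *PLEC*) and the same 2 lower.

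In the direct comparison of TPA with ZnCl2, which shares the libraries of both comparisons above, 1 start was gained, that of *COL17A1* (background 0.715%), and none was lost (0.86%). The start-site percentile was higher in 3 of 7 genes, *LAMB3*, *ITGA6* and *CD151* (background 21.8%), and lower in *PLEC* (17.7%). Of the 53 regions 8 (15.1%) were gained (background 9.73%) and 2, both in *PLEC*, were lost (0.991%). Open sequence was higher with TPA at *LAMA3*, *ITGA6*, *COL17A1* and *DST* (background 10.4%) and lower at *LAMB3*, *ITGA3*, *CD151* and *PLEC* (background 34%).

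**Figure D5:**
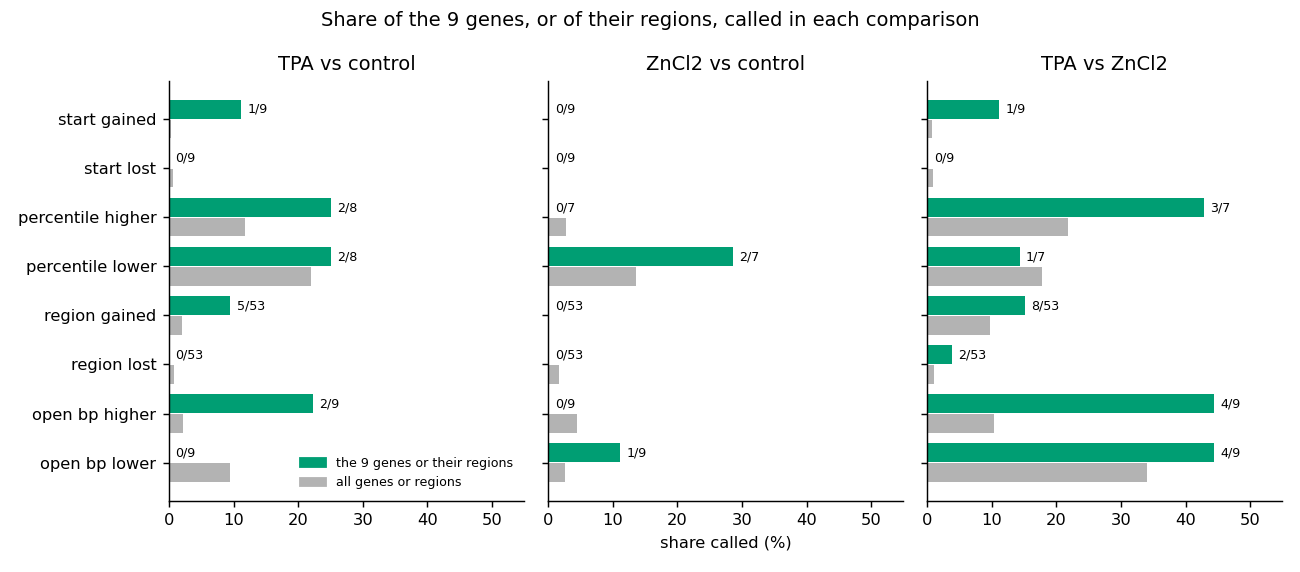
Share (horizontal axis, %) of the 9 genes or their 53 regions (green, with the count) and of all genes or regions (grey) that were called in each of the 3 comparisons, where called means that the libraries of the groups did not overlap. Regions gained with TPA against control were 5 of 53 beside 2.04% of all regions, and no start or region was gained or lost with ZnCl2 against control.

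The wider protein network was read from 4 lists. Among 14 partners of laminin-332 and the hemidesmosome, the percentile at the outermost start was higher with TPA than in control in 4 of the 8 genes with calls in all 4 libraries and lower in none, beside the 11.8% and 21.9% of all genes given above. The canonical start gave another picture for 2 genes. There *ERBIN*, without a call at its outermost start, was lower with TPA (18.6% and 36.3%) than in control (62.6% and 67.4%). *ITGB1*, 1 of the 4 higher genes, overlapped there (76.9% and 86.9% against 74.5% and 81.7%). The largest differences at the outermost start were in *KRT5*, the keratin of basal cells (76.0% and 58.6% with TPA, 37.1% and 45.6% in control), and in *FAT2*, a large cadherin (79.3% and 76.5% against 42.6% and 70.6%). In the 16 desmosome genes, which join cells to each other, 4 of 7 were lower with TPA and 1 was higher, with *DSP* at 15.9% and 45.4% against 60.8% and 74.1%, and the outermost start of *PKP3* was lost. The canonical *PKP3* start was open in all 6 libraries, and was lower with TPA (80.0% and 84.9%) than in control (89.8% and 89.0%). Of 13 focal adhesion genes 5 of 8 were lower and none was higher. Of 20 other basement membrane genes 2 of 7 were higher and 3 lower, with *LAMB1* at 21.2% and 45.4% against 75.5% and 67.4%, and the shared start of *COL4A3* and *COL4A4* was lost. These lists also share the control libraries with the results above.

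Against ZnCl2, the start of *PXN*, a focal adhesion adaptor, was gained with TPA, and those of *COL4A3*, *COL4A4* and, at its outermost base alone, *PKP3* were lost. The percentile at the outermost start of *ITGB1*, the β1 chain that pairs with integrin α3, was 80.0% and 92.3% with TPA and 68.4% and 13.9% with ZnCl2. At its canonical start the values lay closer, at 76.9% and 86.9% with TPA, 67.5% and 58.8% with ZnCl2 and 74.5% and 81.7% in control. *FAT2* stood 43.3 points higher with TPA. Those of *DSG2* and *EVPL* stood lower with TPA, at 23.9% and 32.2% against 75.7% and 46.6% for *DSG2* and at 56.6% and 51.8% against 87.6% and 72.9% for *EVPL*. ZnCl2 gained or lost no start of the 4 lists against control. The largest differences at the outermost starts were in *LAMB1* (51.3% and 4.90% against 75.5% and 67.4%) and *ITGB1*, both lower in the 2 ZnCl2 libraries.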

How the data were processed

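Per the labels and the study's methods, the authors trimmed reads with BBDuk, mapped them to hg38 with HISAT2 (2.1.0), handled alignments with SAMtools (1.8), checked quality with FastQC (0.11.8) and called open regions with HMMRATAC, whose version is not given in the sources used here, in each library separately. The runs of a library were combined. The deposited lists hold regions and a score, a whole number of at least 30. Their later merging, blacklist and DESeq2 steps were not repeated, since they need reads, and blacklisted regions therefore remain.

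Other contigs were left out. Percentiles count the regions of a list with a lower score. A call at a start covers the 5′ base of the gene in GENCODE v44, and regions were merged across lists where they overlapped or touched. Transcript starts within 1000 bp of each other were joined and read at 1 of them. Gained means open in both libraries of the first group and in neither of the second, lost the reverse, and higher or lower means no overlap of the 2 libraries against 2. Differences in means were tested by exact two-sided permutation. The members and lists were chosen with earlier results of these data known. All 9 genes are named. In the other lists, genes were named for a start gained or lost (up to 5 a comparison) and, per comparison, the 2 largest percentile differences in each direction that did not overlap. *ERBIN* was added for its canonical start after its values were seen. At each locus, regions were named if gained or lost, if the widest open in all 6 libraries, or if highest in mean percentile, and further regions named were chosen after their values were seen. RefSeq promoter sequences matched 5 of the 9 genes, not *ITGB4*, *ITGA3*, *CD151* or *PLEC*. A gene of the other lists is counted in them and not reported here. The procedures were tested on simulated data. Alternatives were shorter lists, other start definitions, leaving out each library and the replicate number as a block. Scripts ran in Python 3.11.15 with pysam 0.24.0, SciPy 1.17.1 and pandas 2.3.3.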

Additional observations from a re-analysis of the deposited data

How the results depend on the processing

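Most counts at the 9 genes depended on how many regions a list holds. With an equal number of regions per list, TPA against control had 0 start calls gained or lost (1 in the full lists), 1 start with percentiles that did not overlap (4) and 1 region gained or lost (5). ZnCl2 against control then had 6 starts with percentiles that did not overlap, 4 of them higher, in place of 2 lower, and 3 regions gained or lost in place of 0. TPA against ZnCl2 had 0 start calls gained or lost (1) and 5 regions (10). In the upper 50% of each list by score, the counts were 0, 2 and 0 for TPA against control. ZnCl2 against control had 1 start with percentiles that did not overlap, and TPA against ZnCl2 had 0 start calls and 5 regions gained or lost. The cause was not tested, beyond that shorter lists hold fewer low-scoring calls. The 5 regions gained with TPA, the *COL17A1* start included, are among the calls that these shorter lists leave out of TPA 1, while *CD151* was higher with TPA in these lists too.

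Leaving out 1 library at a time changed the counts, since a lone library makes an overlap less likely. In TPA against control, 5 to 7 starts had percentiles that did not overlap and 7 to 11 regions were gained or lost (11 without control 2, all gained, and 9 without control 1, of which 4 were lost). In ZnCl2 against control the ranges were 0 to 1 start calls, 2 to 8 starts with percentiles that did not overlap (8 without ZnCl2 2, of which 6 were higher, and 6 without control 2, of which 4 were higher) and 0 to 7 regions. In TPA against ZnCl2 they were 1 to 2 start calls, 4 to 8 starts with percentiles that did not overlap (8 without ZnCl2 2, of which 5 were lower) and 10 to 19 regions (19 without ZnCl2 1).

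Replicate numbers did not pair the libraries: over 7877 genes the deviations of same-numbered libraries correlated at 0.17 for TPA and control, -0.46 for ZnCl2 and control and -0.14 for TPA and ZnCl2. With the replicate number as a replicate block, counted within each number and averaged, 13.5 regions were gained or lost with TPA (10.5 gained and 3 lost), 0.5 start calls and 12.5 regions with ZnCl2, and 20 regions in TPA against ZnCl2. The starts with percentiles in the same direction in both pairs were 5, 2 and 5. With crossed numbers, chosen after seeing the data, ZnCl2 against control had 0.5 start calls, 6 starts and 8.5 regions, and TPA against ZnCl2 had 18 regions.

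Of 475 single values by gene recomputed under alternatives, 443 moved by less than 1 SD between replicates or, for widths ranked within their list, kept their direction. This does not show that the values were stable. Leaving out 1 of 2 libraries cannot move a difference by more than this SD, and the replicate block of the percentiles repeats the main value. At the *LAMA3* start TPA minus control was -41.6 points without control 1 and -1.44 without control 2. Another 4 values, which did not overlap between groups, changed sign. At the canonical start *PLEC* was 0.70 points higher with TPA than in control and 5.31 points higher than with ZnCl2. With an equal number of regions the open sequence of TPA minus ZnCl2 was -0.98 kb at *LAMA3* and -0.005 kb at *DST*. Depth cannot be given from lists of regions, so that a start without a call is not shown to be closed.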
